A study of Homo sapiens with 3 samples.

Results

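The 10 tubulin isotypes described here are the alpha-tubulin genes TUBA1A, TUBA1B, TUBA1C and TUBA4A and the beta-tubulin genes TUBB, TUBB2A, TUBB2B, TUBB3, TUBB4B and TUBB6. They were looked up by gene symbol in the platform annotation, among 18417 genes with a probe set of their own. The isotypes were chosen with earlier results of these data known, so that counts of high levels among them only describe this set. Of the 10, TUBB3 has no probe set of its own and 9 do. The transcripts were measured in total RNA of C33A cells, grown as 3 independent cultures. C33A is an established human cervical carcinoma line. The cultures were growing exponentially and untreated in medium with fetal bovine serum, so that all 3 arrays belong to 1 group and hold no contrast. The study used these levels to rank genes against the binding of the chromatin remodeller CHD8 to promoters in the same line.

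Microtubules are hollow filaments built from dimers of alpha- and beta-tubulin, and they form the mitotic spindle, the tracks for motor proteins and the core of the cilium. Humans carry several genes for each subunit, called isotypes, whose proteins are nearly the same along most of their length and differ mainly in the acidic tail at the carboxyl end, where most tubulin modifications are added. Some isotypes are made in nearly every cell, whereas others are typical of neurons, blood platelets, testis or oocytes. Dividing cells also adjust the stability of tubulin mRNA to the pool of free tubulin, a control called autoregulation.

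All 3 pairs of arrays had a Pearson's r of 0.99 across 33297 probe sets. The values are log2 signals of Affymetrix Human Gene ST arrays, normalized together, so that a difference of 1 is a doubling of signal. The signal of a probe set depends on the sequence of its probes and is not scaled to transcript length. An order of genes is therefore an order of signals and not of transcript numbers. No detection call comes with the values. As a bound for background served 6.42, the 95th percentile of 459 genes from families that are silent in most tissues (beta-defensins, keratin-associated proteins and the receptors for odour and taste). Of all genes, 56.4% had a mean level above this bound, and by definition 10.0% were in decile 10, the tenth of genes with the highest level.

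Most tubulin isotypes had a high level in C33A cells. Of the 9 with a probe set of their own, 8 were above the bound and 6 were in decile 10. These 6 were TUBB, TUBB4B and TUBB6 among the beta-tubulins and TUBA1A, TUBA1B and TUBA1C among the alpha-tubulins. The median level of the 9 was 10.71 log2, against 6.91 for all genes. TUBA4A was the exception, with a level below the bound on every array.

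TUBB, the class I beta-tubulin found in most dividing tissues, had the highest signal of the 9. It gave 13.51, 13.55 and 13.43 log2 on arrays 1, 2 and 3, with a mean of 13.50 ± 0.06 (SD, n = 3), which was rank 6 among all genes. The 3 probe sets annotated to TUBB held identical values on each array, so that they count as 1 measurement. TUBB lies in the major histocompatibility region of chromosome 6. RefSeq lists start sites of TUBB at more than 1 place. The 250 bases before each of 2 start sites (GRCh38.p14, plus strand, chr6:30720102-30720351 and chr6:30721388-30721637) are shown because TUBB had the highest signal and is on the list of CHD8 target genes. Capitals mark the CCAAT box (CCAAT) and the GC box (GGGCGG), each on either strand.
TUBB, first start: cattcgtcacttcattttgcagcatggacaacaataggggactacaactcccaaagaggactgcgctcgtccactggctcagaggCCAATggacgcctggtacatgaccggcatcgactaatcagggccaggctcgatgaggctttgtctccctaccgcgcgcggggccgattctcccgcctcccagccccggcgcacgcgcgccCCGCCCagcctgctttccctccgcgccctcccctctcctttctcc
TUBB, second start: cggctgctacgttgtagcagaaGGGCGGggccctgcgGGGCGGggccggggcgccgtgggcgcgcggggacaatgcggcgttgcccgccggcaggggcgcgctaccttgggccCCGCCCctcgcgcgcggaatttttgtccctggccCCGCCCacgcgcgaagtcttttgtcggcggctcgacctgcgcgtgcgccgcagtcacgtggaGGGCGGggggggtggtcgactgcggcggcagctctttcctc
The stretch at the first start holds 1 CCAAT box and 1 GC box, whereas the 300 bases around the second start hold 6 GC boxes and no CCAAT box.

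TUBB4B, the class IVb beta-tubulin, which is also broadly expressed and is a main component of cilia, was next in signal. It gave 12.51, 12.54 and 12.51 log2, with a mean of 12.52 ± 0.02 (SD, n = 3), rank 38 among all genes. The values of TUBB and TUBB4B did not overlap. The sequence before its start site (GRCh38.p14, plus strand, chr9:137241037-137241286) is shown because it held the most CCAAT boxes, in capitals, of the isotype promoters.
TUBB4B: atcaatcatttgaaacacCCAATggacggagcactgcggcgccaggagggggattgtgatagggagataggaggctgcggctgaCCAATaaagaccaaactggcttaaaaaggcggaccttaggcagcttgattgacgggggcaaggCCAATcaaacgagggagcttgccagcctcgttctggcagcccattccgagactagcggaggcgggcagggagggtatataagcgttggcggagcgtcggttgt
It holds 3 CCAAT boxes and no GC box.

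TUBB6, the class V beta-tubulin, a minor isotype in most tissues, gave 10.40, 10.34 and 10.37 log2, with a mean of 10.37 ± 0.03 (SD, n = 3). It was in decile 10, at rank 1036. The class II genes TUBB2A and TUBB2B, neighbours on chromosome 6 whose proteins are nearly identical and which are best known from brain, had lower levels in decile 8. TUBB2A gave 9.06, 8.93 and 8.90 log2 as the average of its probe sets, with a mean of 8.96 ± 0.08 (SD, n = 3). TUBB2B gave 8.79, 8.99 and 8.89, with a mean of 8.89 ± 0.10 (SD, n = 3). The ranges of this pair overlapped, since TUBB2A was higher on 2 arrays and TUBB2B on the other. The probe sets of TUBB2A did not agree among themselves. The probe set annotated with its RefSeq transcript gave 9.38, 9.35 and 9.26, all above the TUBB2B values. The other 2 probe sets of TUBB2A gave the same values as each other, 8.89, 8.72 and 8.72. Hybridization of one transcript of this pair to probes of the other was not tested, because probe sequences were not used here.

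TUBB3, the class III beta-tubulin used as a marker of neurons, has only 1 probe set, which it shares in the annotation with its neighbour on chromosome 16, the melanocortin receptor gene MC1R. This probe set gave 10.48, 10.52 and 10.50 log2, with a mean of 10.50 ± 0.02 (SD, n = 3), just below TUBA1B and just above TUBB6. A second probe set, annotated to MC1R alone, gave 6.76, 6.85 and 6.73 log2. The shared signal therefore cannot be given to TUBB3 alone from the annotation, and TUBB3 was left out of the counts.

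The alpha-tubulin genes TUBA1A, TUBA1B and TUBA1C, which lie next to each other on chromosome 12, were all in decile 10. TUBA1C gave 11.53, 11.50 and 11.43 log2, with a mean of 11.49 ± 0.05 (SD, n = 3). TUBA1A, the main alpha-tubulin of postmitotic neurons, gave 11.31, 11.33 and 11.18, with a mean of 11.27 ± 0.08 (SD, n = 3). TUBA1B, a ubiquitous alpha-tubulin, gave 10.73, 10.68 and 10.71, with a mean of 10.71 ± 0.02 (SD, n = 3). The ranges of these 3 genes did not overlap, although TUBA1C exceeded TUBA1A by only 0.16 to 0.26 log2 within an array. Their proteins are nearly identical, and sharing of signal among their probe sets was not tested.

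TUBA4A, which is abundant in blood platelets, muscle and brain, was the isotype of lowest signal. It gave 6.11, 5.97 and 6.09 log2, with a mean of 6.06 ± 0.07 (SD, n = 3, decile 4). OR1F1, the odour receptor gene of highest mean, reached 6.38, above each of these values. With olfactory receptor genes alone the bound was 5.37, and TUBA4A was then above the bound. TUBA4B, which overlaps TUBA4A on chromosome 2, gave 6.60, 6.58 and 6.37. The sequences before the start sites of TUBA1B (GRCh38.p14, minus strand, chr12:49131396-49131645) and TUBA4A (minus strand, chr2:219253919-219254168) are shown because TUBA1B is on the list of CHD8 target genes and TUBA4A had the lowest signal. Capitals mark GC boxes on either strand, of which the first pair in TUBA1B overlaps.
TUBA1B: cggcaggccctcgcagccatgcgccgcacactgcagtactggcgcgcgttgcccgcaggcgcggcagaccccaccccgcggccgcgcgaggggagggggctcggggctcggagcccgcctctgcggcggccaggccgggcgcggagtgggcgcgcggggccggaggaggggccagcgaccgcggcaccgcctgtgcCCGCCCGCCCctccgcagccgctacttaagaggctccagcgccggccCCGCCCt
TUBA4A: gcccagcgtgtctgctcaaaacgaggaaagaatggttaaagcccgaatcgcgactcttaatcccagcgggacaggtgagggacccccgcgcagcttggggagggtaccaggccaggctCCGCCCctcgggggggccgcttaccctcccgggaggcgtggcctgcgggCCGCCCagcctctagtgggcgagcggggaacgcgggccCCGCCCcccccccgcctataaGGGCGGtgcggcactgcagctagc
Neither holds a CCAAT box. TUBA1B has 3 GC boxes and TUBA4A has 4, so that GC boxes were present before the isotypes of both high and low signal.

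**Figure D1:**
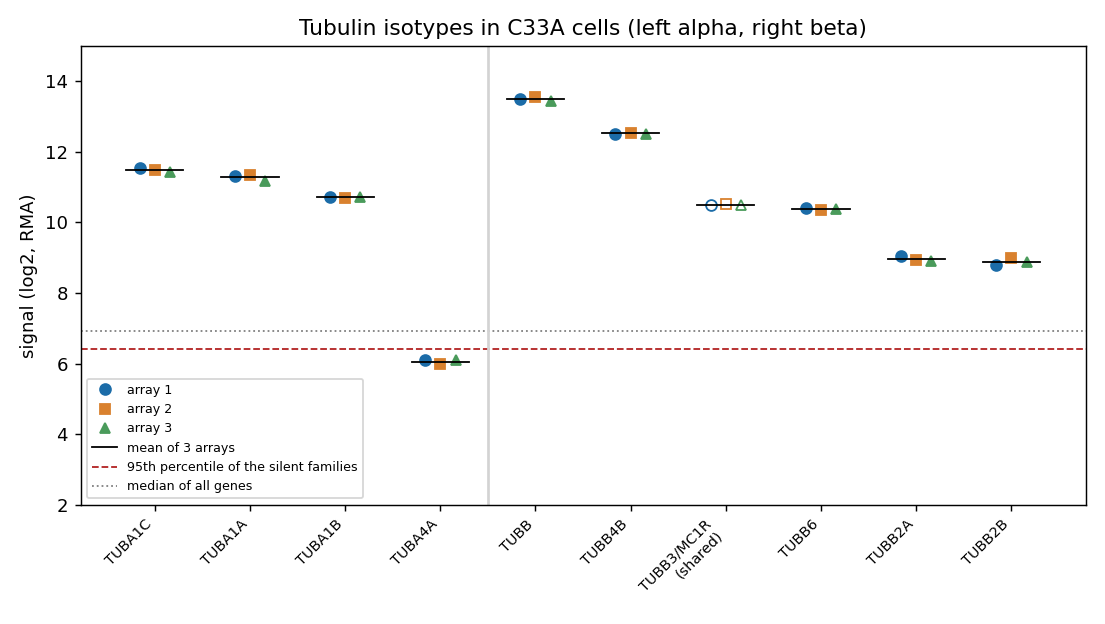
Signal of the tubulin isotypes on each array (y axis, log2) with the mean of 3 arrays, alpha-tubulins left and beta-tubulins right, each sorted by mean. Open symbols are the probe set that TUBB3 shares with MC1R, the dashed line is the background bound at 6.42 and the dotted line the median of all genes at 6.91. TUBA4A alone lies below the bound, TUBB is highest at 13.50, and the points of TUBB2A and TUBB2B overlap.

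In order of signal the isotypes were TUBB, TUBB4B, TUBA1C, TUBA1A, TUBA1B, TUBB6, TUBB2A, TUBB2B and TUBA4A, with the shared probe set of TUBB3 between TUBA1B and TUBB6. TUBB2A and TUBB2B were the neighbours in this order whose ranges over the arrays overlapped. No test was made between genes, since their signals come from different probes.

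Most promoters of the isotypes held a CCAAT box, a GC box or both. The share of all promoters with either box was not counted. RefSeq gives 15 promoters for the 10 genes, each of 300 bases from 250 before the start site. A CCAAT box was present in 9 of 15 (60.0%), against 34.6% of all 35116 promoters. A GC box was present in 9 of 15 as well, against 45% of all. A TATA box (TATAAA, either strand) was found in 1, that of TUBB2A, where it lies 30 to 25 bases before the start site, against 11.5% of all. Only these exact letters were counted, so that a near match such as tatataa in the TUBB4B stretch was not. None of the 15 held an E2F site, searched as TTTCCCGC, TTTCGCGC, TTTGCCGC or TTTGGCGC on either strand, against 3.31% of all. At such a share, absence from 15 promoters says little about the isotypes. The paper searched CHD8 target promoters with motif matrices, which differs from the exact letter match used here. These shares describe letters in a window, and promoters of the same gene can overlap. A pair of TUBA1C promoters overlaps and holds the same CCAAT box, which was counted in both. The median GC content of the isotype promoters was 67.7%, from 46.7% to 81.3%, against a median of 58.7% for all.

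TUBB and TUBA1B are on the list of CHD8 target genes, which holds the genes with CHD8 at the promoter in both ChIP-chip experiments in C33A cells. They are 2 of the 9 isotypes measured, against 9.63% of all genes measured. The paper reported medium or high activity for most CHD8 targets. The share on the list among genes of like signal was not counted here. TUBB4B, TUBA1C and TUBA1A, which all had a higher signal than TUBA1B, are not on that list. None of the other 14 tubulin genes measured is on it either. With so few genes no share was tested, and absence from the list does not show absence of CHD8.

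The cultures differed little in tubulin levels. Over the 9 isotypes the median SD was 0.06 log2, from 0.02 for TUBB4B to 0.10 for TUBB2B. Among all genes the median SD was 0.14 in the lowest decile and 0.04 in the highest. Against genes of the same decile, 5 of the 9 isotypes had an SD above the median, namely TUBA1A, TUBA1C, TUBB, TUBB2A and TUBB2B. TUBA1A exceeded 86.4% of the genes of its decile in SD and TUBB4B exceeded 12.6%. The largest range over arrays was that of TUBB2B, 0.20 log2. None of the 9 had its highest value on array 3, whereas 5 had it on array 1 and 4 on array 2. The share of all genes with their highest value on each array was not counted, so this count has no background. The median SD of the isotypes was 0.043 log2 without array 1, 0.054 without array 2 and 0.033 without array 3. Each of these SDs rests on 2 arrays and is not a like measure to that over 3. The number of isotypes with an SD above the median of their decile was then 4, 5 and 3. The isotypes deviated from their own means by a median of 0.025 log2 on array 1, 0.008 on array 2 and -0.007 on array 3. For all genes this median was 0.009 on array 1 and -0.004 on both other arrays.

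**Figure D2:**
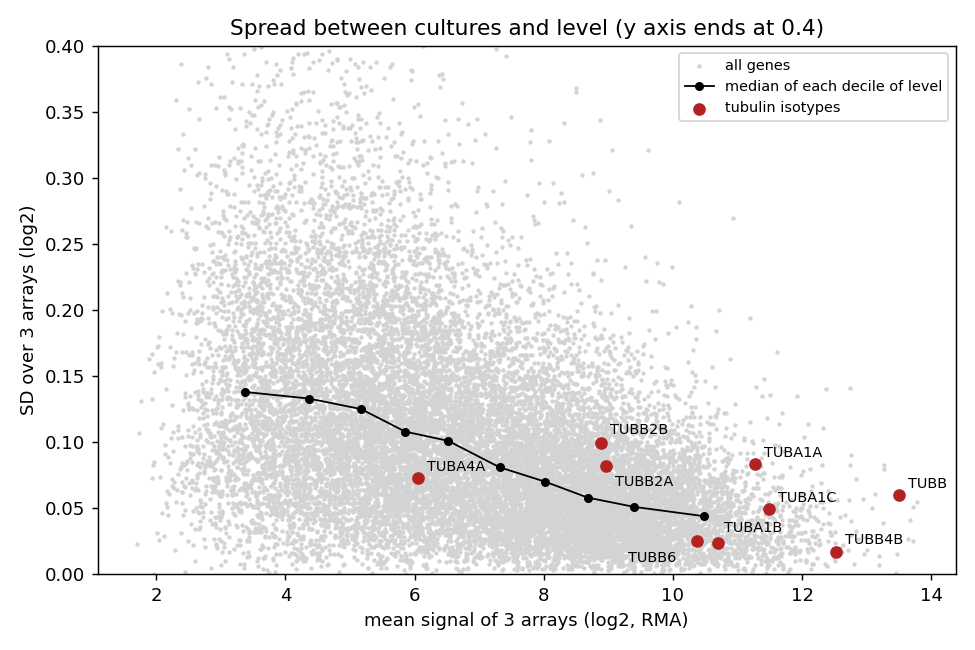
SD over 3 arrays (y axis, log2) against mean signal (x axis, log2) for all genes in grey and 9 tubulin isotypes in red, with the median of each decile of level in black. The y axis ends at 0.4, beyond which lie 101 genes. TUBA1A and TUBB2B lie above the black line and TUBB4B and TUBA4A below it.

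Of 14 tubulin genes measured outside these isotypes, 9 were above the bound, against 56.4% of all genes. Their median was 6.87 log2, near the 6.91 of all genes. TUBG1, the gamma-tubulin that nucleates microtubules at centrosomes, gave 11.75, 11.80 and 11.83 log2, with a mean of 11.79 ± 0.04 (SD, n = 3), and was the only one of the 14 in decile 10. Its paralog TUBG2 was at 8.88 ± 0.18 (SD, n = 3), and its arrays ranged from 8.68 to 9.02. The centriole tubulins TUBD1 and TUBE1 were at 8.57 ± 0.12 and 7.14 ± 0.09 (SD, n = 3). All 4 of these genes were above the bound. Of 8 other alpha- and beta-tubulins measured, 3 were above it, with a median of 5.86. The highest was TUBB4A, a beta-tubulin of neurons and oligodendrocytes, at 7.94 ± 0.17 (SD, n = 3). TUBA3C, known from testis, was at 7.11 ± 0.23 (SD, n = 3) and TUBA4B at 6.52 ± 0.12 (SD, n = 3). TUBA3E at 5.90, TUBA8 at 5.81, the oocyte tubulin TUBB8 at 5.09, the platelet tubulin TUBB1 at 4.85 and TUBAL3 at 3.67 were below the bound. The transcribed pseudogene TUBBP5 was at 8.98 ± 0.07 (SD, n = 3), close to the values of TUBB2A and TUBB2B. A probe set shared by TUBBP5, TUBB8 and the pseudogene TUBB8P7 gave 7.95, 7.97 and 7.92. Whether these signals come from the pseudogene or from a tubulin of like sequence was not tested. The pseudogene TUBA3FP was at 6.63, and the probe set shared by TUBA3C, TUBA3D and TUBA3E gave 6.96, 6.82 and 6.83.

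**Figure D3:**
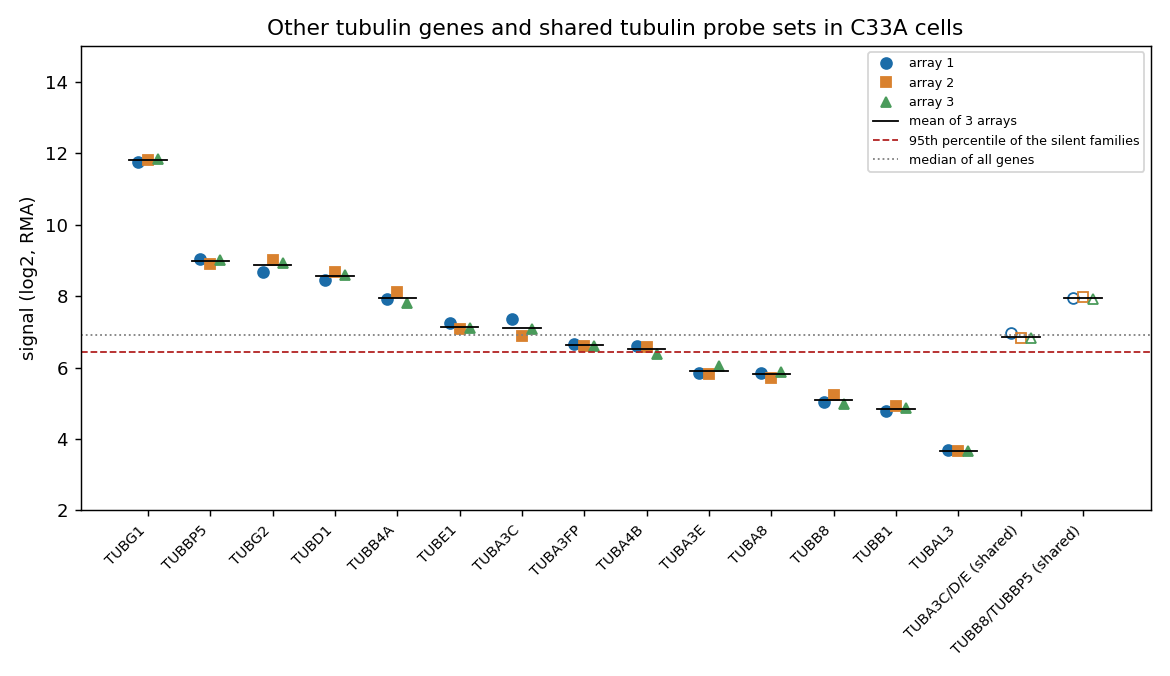
Signal of the other tubulin genes on each array (y axis, log2), sorted by the mean of 3 arrays, with 2 probe sets shared by several tubulin genes as open symbols (the right one also carries TUBB8P7). The dashed line is the background bound at 6.42 and the dotted line the median of all genes. TUBG1, at 11.79, stands above the rest.

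Genes that fold, nucleate and modify tubulin were measured beside the isotypes. Over 8 lists of tubulin and microtubule genes outside the isotypes, 90 of 113 genes measured (79.6%) were above the bound, against 56.4% of all genes. Their median was 8.53 log2, against 6.91 for all genes. All 20 folding genes measured were above the bound, and 11 were in decile 10, against 10.0% of all genes. The chaperonin subunit TCP1 at 13.08 ± 0.05 (SD, n = 3) was the highest and the cofactor TBCC, which helps release the finished dimer, at 7.57 ± 0.07 (SD, n = 3) the lowest. TBCA, a cofactor that holds beta-tubulin, was at 10.80 and TBCB, which holds alpha-tubulin, at 10.81. In autoregulation, TTC5, which recognizes nascent tubulin at the ribosome, was at 7.29 ± 0.05 (SD, n = 3), SCAPER, its partner, at 7.67, and the deadenylase subunits CNOT11 and CNOT1 at 10.73 and 11.44. In the gamma-tubulin complex all 11 genes measured were above the bound, from MZT2B at 7.24 ± 0.08 (SD, n = 3) to NEDD1, which recruits the complex to centrosomes, at 10.23 ± 0.02 (SD, n = 3).

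The genes of tubulin modification, which are not all enzymes, divided more widely. Of 26 measured, 17 (65.4%) were above the bound, against 56.4% of all genes, with a median of 7.44. The tubulin tyrosine ligase TTL was highest, at 10.68 ± 0.05 (SD, n = 3), and the carboxypeptidase VASH1, which removes the same tyrosine, was at 8.36. The tubulin deacetylases SIRT2 and HDAC6 were at 9.43 and 8.21, and the acetyltransferase ATAT1 at 7.40. The 9 genes below the bound were the ligase family genes TTLL2, TTLL6, TTLL9, TTLL11 and TTLL13 and the carboxypeptidase genes AGBL1, AGBL2, AGBL3 and AGBL4, the lowest of which was AGBL3 at 3.80 ± 0.09 (SD, n = 3). Of these families TTLL12 was at 10.05, TTLL4 at 9.71 and AGTPBP1, a deglutamylase, at 8.77.

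Among 29 microtubule-binding proteins 23 (79.3%) were above the bound, against 56.4% of all genes. The highest was the plus-end protein MAPRE1 at 11.67 ± 0.07 (SD, n = 3) and the lowest was doublecortin (DCX), a protein of migrating neurons, at 4.28 ± 0.03 (SD, n = 3). Among 11 destabilizing and severing proteins 8 (72.7%) were above the bound. Levels in this list ran from KIF2A, a depolymerizing kinesin, at 10.01 ± 0.06 (SD, n = 3) down to FIGN at 4.70 ± 0.33 (SD, n = 3). The actins, the subunits of the other large filament system, also held genes at both ends. Of 6 actin genes, ACTG1 and ACTB were at 13.66 ± 0.04 and 13.46 ± 0.0008 (SD, n = 3), close to TUBB, and the other 4 were at 5.12 to 7.85. ACTC1, the cardiac actin, was the lowest.

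Marker genes gave the setting of these levels. The share of all genes above the bound was 56.4%. Of 11 epithelial markers measured, the keratin gene KRT18 at 7.75 ± 0.11 (SD, n = 3) was the only one above the bound, whereas EPCAM was at 4.52, the cadherin gene CDH1 at 4.95 and KRT8 at 5.75. KRT7, at 6.32, was just under the bound and above it on array 1. Of 16 neuronal markers, 5 were above the bound, with GAP43 at 10.94 ± 0.27 (SD, n = 3), CRMP1 at 10.42 ± 0.11 (SD, n = 3), the neurofilament-like gene INA at 10.28 ± 0.13 (SD, n = 3), the microtubule-binding protein gene MAPT at 7.48 ± 0.18 (SD, n = 3) and SYP at 6.97. STMN2, DCX, RBFOX3, NEFL, NEFM, SNAP25 and SYT1 were not above it, and ELAVL4 was the lowest at 3.42. The bound was 5.37 with olfactory receptor genes alone. KRT7, KRT8, STMN2, NEFL and SNAP25 were above that value, whereas EPCAM, CDH1, DCX, RBFOX3, NEFM and SYT1 were not. Counts of markers therefore depend on the bound. The median of the neuronal markers was 5.51, 5.42 and 5.48 on the 3 arrays. Their part in the levels of TUBA1A, TUBB2B and the TUBB3 probe set was not tested. In such bulk RNA a smaller number of cells with a transcript and less of it per cell cannot be told apart. Of the fibroblast markers 3 of 8 were above the bound, with COL3A1 at 11.36 and LUM at 2.52. Of the leukocyte markers 2 of 7 were, PTPRC at 8.82 and CORO1A at 8.14, with CD3E lowest at 4.59. Of the endothelial markers CLDN5, at 6.89, was the only one of 8, and PECAM1 was the lowest at 3.58.

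**Figure D4:**
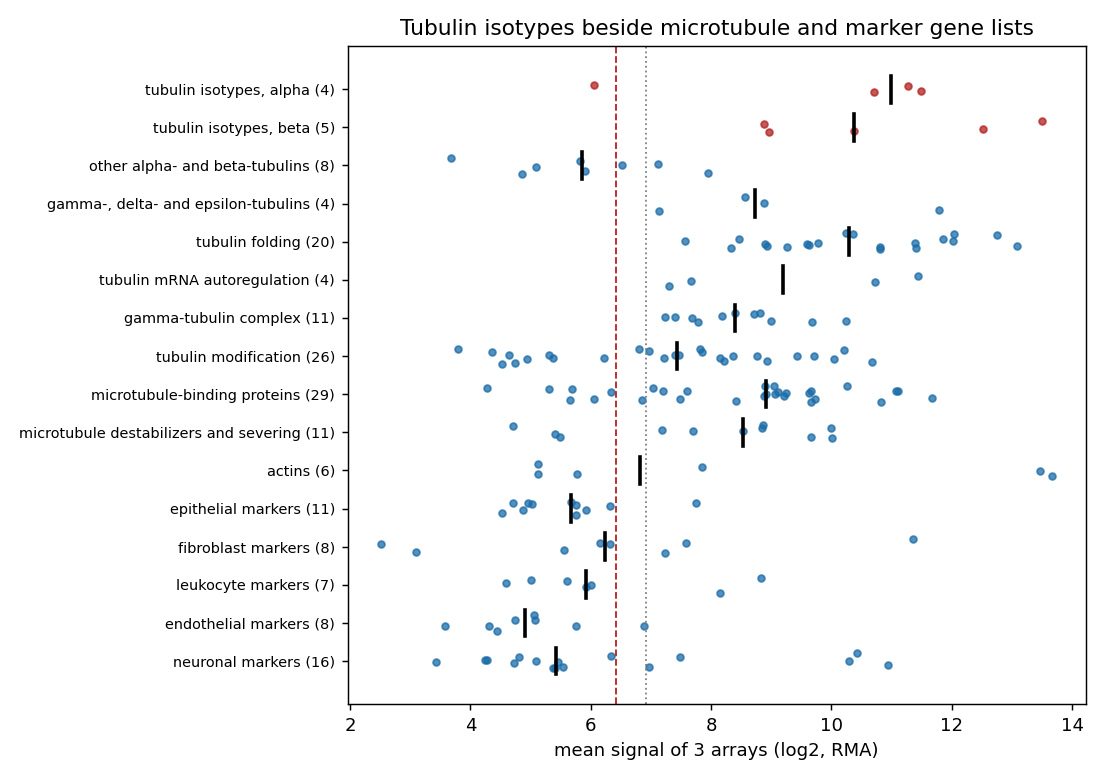
Mean signal of 3 arrays (x axis, log2) for each gene of the tubulin isotypes (red) and of the other lists (blue), with the median of each list as a black bar and the number of genes measured in brackets. The dashed line is the background bound and the dotted line the median of all genes. The folding genes, with a median of 10.30, lie near the isotypes, and most marker genes lie below the bound.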

How the data were processed

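RNA of each of 3 untreated C33A cultures was labelled and read on its own Affymetrix Human Gene ST array. The authors used Robust Multichip Average (RMA) and oneChannelGUI (versions not given in the sources used here) and deposited log2 intensities, 1 per probe set. The number of arrays limits the precision.

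Names of probe sets came from the platform annotation, with symbols updated by gene ID through RefSeq (GRCh38.p14), which also gave gene neighbours and the promoters. Of 33297 probe sets, 19460 with 1 symbol were averaged per gene into 18417 genes, and 1754 with several symbols were kept apart. The annotation writes all members by their current symbols. Genes were ranked by mean level into 10 deciles.

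The 1965 entries of the CHD8 target list were matched by accession (1908), symbol (39) or synonym (11). Only the names on the list were used. All 10 members matched a RefSeq promoter. Protein sequences were not analysed here.

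The members and lists were chosen with earlier results of these data known. Named genes are all members and other measured tubulins, the highest and lowest gene of each list, and genes below the bound in the folding, gamma-tubulin and modification lists. Other genes (MC1R, OR1F1, KRT7, TBCA, TBCB, SCAPER, CNOT11, VASH1, SIRT2, HDAC6, ATAT1, TTLL12, TTLL4, AGTPBP1, ACTB and the remaining markers) were named after their values were seen. No test was run. The alternatives left out each array, took the highest probe set, added shared probe sets, centred the arrays, changed the bound, ranked protein-coding genes only and matched targets by symbol as written. Counting identical probe sets once was chosen after seeing the data. The functions were tested on simulated data. Computations used Python 3.11.15, NumPy 2.4.6, pandas 2.3.3 and matplotlib 3.10.9.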

Additional observations from a re-analysis of the deposited data

How the results depend on the processing

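Of the 43 summary values recomputed, 41 stayed within a set limit. The limit was the spread between arrays for the median level and 1.5 times for counts. For the median SD it was the spread of the SDs among the isotypes, not between arrays. Under that limit 0.033 against 0.060 log2 counted as unchanged. The median level of the isotypes was 10.60 log2 with shared probe sets added, which brought in TUBB3, against 10.71. When 1 array was left out, the number of isotypes with an SD above the median of their decile was 3 to 5. Their median SD was as low as 0.033 log2 against 0.060, and both were lowest without array 3. An SD with 1 array left out rests on fewer arrays than the main value. Across all settings run for them, at least 8 isotypes were above the bound and at least 6 in decile 10. With olfactory receptor genes alone, 9 were above it, TUBA4A included. With the 99th percentile of the silent families (7.88 log2), 8 isotypes were above the bound and the other tubulin and microtubule genes fell from 90 to 66. TUBB2A was at 9.33 with its highest probe set and at 9.06 with identical probe sets counted once, against 8.96. No paired analysis was possible because there is 1 group. No difference between cultures was tested, and genes near the bound cannot be called present or absent.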
